A study of Mus musculus with 8 samples.

Results

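The regions described here are stretches of mouse chromatin that carried acetylation of lysine 27 of histone H3 (H3K27ac) both before and after 4-hydroxytamoxifen (4OHT) and that covered more DNA afterwards. They were chosen by measured values: peaks of the 4 H3K27ac libraries sharing at least 1 bp were joined, and a joined region was kept if it held a peak in every library and its summed peak length was at least 1.5 times greater in treated than in untreated cells in clone a and in clone b. The lists gave 82792 joined regions, and the 30131 with a peak in every library are termed shared. Of the shared regions, 1901 met the rule (6.31%) and are called widening regions. The mirror rule, at least 1.5 times shorter in both clones, was met by 2176 shared regions (7.22%), called narrowing. Because peak length after treatment against before selected the members, their lengths, ratios and scores are given as a description and carry no test.

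E14tg2a mouse embryonic stem cells on a 129SV background were used, and all groups stably expressed cRAF-ErT2, a RAF kinase joined to a tamoxifen-responsive oestrogen receptor domain. They were cultured with serum, LIF (a cytokine that sustains the stem cell state) and 2 uM Chir99021 (a GSK3 inhibitor). For the last 24 h the medium named in the labels contained serum, LIF and the FGF receptor inhibitor PD173074 at 250 nM. The untreated group (0 h) was clones a and b without 4OHT, and the treated group was clones a and b given 250 nM 4OHT for 2 h, with the purpose of switching on the kinase ERK through cRAF-ErT2. ERK activity was not measured in these files, and the labels name no vehicle control and no cells without the fusion, so effects of 4OHT itself and of ERK cannot be told apart. Each treatment thus had 2 libraries, 1 per clone, and nothing in the labels says that they came from more than 1 culture per clone.

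H3K27ac is deposited by the acetyltransferases p300 and CBP and marks active promoters and enhancers. ERK enters the nucleus when the RAF, MEK and ERK cascade is active and phosphorylates transcription factors such as the ternary complex factors, which bind beside SRF at immediate-early genes. In embryonic stem cells, FGF signalling through ERK is known to prepare cells for differentiation, and it induces its own inhibitors, among them Sprouty proteins and dual-specificity phosphatases.

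The 4 lists held 59170 to 63276 peaks and covered 50.4 to 53.1 Mb. Read depth is unknown. The cell identity named in the labels was checked against marker genes: all 10 stem cell markers, Pou5f1, Sox2 and Nanog among them, had a shared region within the gene or 1 kb of it. Of 12 fibroblast markers, 10 had no peak in any library, Col1a1 had a shared region, and Twist1 was covered over 1662 and 1854 bp in treated clones a and b and 0 bp in both untreated ones. In 5 of 7 differentiated-tissue markers and 1 of 6 primitive endoderm markers no library had a peak. These are bulk libraries, so more cells carrying the mark at a site and more mark per cell cannot be told apart.

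Promoters inside widening regions are shown first, because they let a reader see what kind of sequence lay in such regions. A window can lie in the part already covered before treatment, as the Spred1 window did in both untreated clones. The 6 below lie wholly inside a widening region, and 5 of them belong to genes of the ERK lists described later. Each run is the 250 bases before the annotated start, 5′ to 3′ on the gene's strand, from RefSeq on assembly GRCm38.p6 (the coordinates of mm10). Capitals mark a match to a searched motif, which was an EGR site (GCGNGGGCG) in Fosl2 and a CArG box, the SRF site of CC, 6 bases of A or T, and GG, in Egr2. Runs with no capitals held none of the 6 motifs searched.
Fosl2 chr5:32136222-32136471, plus strand: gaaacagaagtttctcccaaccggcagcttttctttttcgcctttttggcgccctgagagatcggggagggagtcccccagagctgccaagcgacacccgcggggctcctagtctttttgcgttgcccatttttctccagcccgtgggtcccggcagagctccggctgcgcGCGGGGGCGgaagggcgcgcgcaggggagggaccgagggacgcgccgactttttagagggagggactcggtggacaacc
Spred1 chr2:117120821-117121070, plus strand: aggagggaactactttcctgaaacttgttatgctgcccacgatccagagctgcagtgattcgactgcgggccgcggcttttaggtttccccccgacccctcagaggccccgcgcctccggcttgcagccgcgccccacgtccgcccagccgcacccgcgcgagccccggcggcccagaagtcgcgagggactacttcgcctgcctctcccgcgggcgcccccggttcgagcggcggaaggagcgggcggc
Egr2 chr10:67537316-67537565, plus strand: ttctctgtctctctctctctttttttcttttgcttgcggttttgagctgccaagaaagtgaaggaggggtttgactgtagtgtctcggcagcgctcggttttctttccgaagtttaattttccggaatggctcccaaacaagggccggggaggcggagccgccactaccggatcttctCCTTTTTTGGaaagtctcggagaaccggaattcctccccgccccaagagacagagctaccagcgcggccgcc
Rasa2 chr9:96631504-96631753, minus strand: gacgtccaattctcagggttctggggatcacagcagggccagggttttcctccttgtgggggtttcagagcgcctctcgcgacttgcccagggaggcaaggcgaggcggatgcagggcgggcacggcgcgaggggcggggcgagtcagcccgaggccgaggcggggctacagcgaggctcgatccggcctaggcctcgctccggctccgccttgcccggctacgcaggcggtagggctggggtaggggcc
Elk3 chr10:93311160-93311409, minus strand: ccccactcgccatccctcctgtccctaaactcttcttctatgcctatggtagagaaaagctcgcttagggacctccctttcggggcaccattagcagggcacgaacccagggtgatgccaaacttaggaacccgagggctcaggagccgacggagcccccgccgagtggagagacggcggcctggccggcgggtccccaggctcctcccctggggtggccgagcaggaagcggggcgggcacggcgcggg
S100a3 chr3:90584409-90584658, plus strand: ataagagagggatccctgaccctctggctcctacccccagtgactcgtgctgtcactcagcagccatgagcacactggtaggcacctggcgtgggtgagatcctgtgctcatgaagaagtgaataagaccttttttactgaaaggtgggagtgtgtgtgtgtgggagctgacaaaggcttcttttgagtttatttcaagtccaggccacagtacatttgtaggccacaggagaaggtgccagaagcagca

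Fosl2 encodes an AP-1 subunit, and its region chr5:32132655-32137315 covered 1049 bp in untreated clone a, 1336 bp in untreated clone b, 3904 bp in treated clone a and 4400 bp in treated clone b. Egr2 encodes a zinc finger factor of the EGR family, and its region chr10:67536988-67539155 covered 652, 1039, 2166 and 1997 bp in the same order, which is kept throughout. Spred1, an inhibitor of RAS signalling to RAF, had a region at chr2:117120382-117123452 of 1556, 1595, 3052 and 3069 bp. In these 3 promoter regions both treated clones lay above both untreated clones, which the rule favours. The Spred1 clones differed little within each treatment. The Rasa2 region covered 249, 512, 1463 and 1546 bp, and that gene encodes a GTPase-activating protein for RAS. The Elk3 region covered 362, 587, 1418 and 1595 bp, and Elk3 is a ternary complex factor, itself a substrate of ERK. At S100a3, which encodes a small calcium-binding protein, the region chr3:90583715-90590154 covered 621, 484, 5869 and 6277 bp, an 11.1-fold difference on the geometric mean of the clones. The EGR match of Fosl2 began at position -79 and the CArG box of Egr2 at position -72, counted from the start.

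Motif letters were counted on both strands over 300-base promoter windows (250 before and 50 after a start), with 1 window per gene. The promoter table held 17491 of 21896 protein-coding genes, and 391 of them had a window that overlapped a widening region, against 7902 for any shared region. An EGR site was found in 59 of the 391 (15.1%, 95% Clopper-Pearson interval 11.7 to 19.0%), in 9.44% of windows in any shared region and in 6.25% of all windows. The AP-1 letters TGANTCA were in 5.63% (3.56 to 8.40%), against 3.57% in shared regions and 6.22% of all. The CRE TGACGTCA was in 1.53%, against 3.21% in shared regions and 2.01% of all, and the ETS letters CCGGAAGT in 5.88%, against 7.40% and 3.84%. The TATA letters TATAAA were in 7.67%, against 5.39% and 12.4%, and the CArG box in 1.79%, against 1.10% and 1.40%; TATAAA can lie inside a CArG box. The 89 windows in narrowing regions held an EGR site in 3.37%, AP-1 in 6.74%, CRE in 1.12%, ETS in 2.25%, TATA in 3.37% and a CArG box in 3.37%, from 1 to 6 windows each. Median GC was 64.0% in widening promoters and 60.8% in shared ones, so the GC-rich EGR letters and base composition moved together, and the part of base composition was not tested. AP-1 letters also stood at position -95 of the Anxa2 window and -69 of the Plaur window, of which only 12 and 72 of the 250 upstream bases lay in the widening region concerned. These matches describe letters in a window and are not evidence of a bound factor.

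Across the 1901 widening regions the covered length had a median of 489 bp in untreated clone a and 509 bp in untreated clone b, and of 1175 and 1201 bp in treated clones a and b. All 30131 shared regions had medians of 951, 922, 970 and 927 bp. Widening regions were thus short before treatment and longer than the typical shared region after it, as a rule based on a ratio favours. The added length, averaged over the clones, had a median of 649.5 bp and ran from 105 to 7924.5 bp. The fold, the geometric mean of both clone ratios, had a median of 2.15 and ran from 1.51 to 19.2. In 1845 members (97.1%) the lower treated value exceeded the higher untreated value, and in 56 the groups overlapped. Members had to be at least 1.5 times longer in each clone, so the rule itself favours this separation. The same share over all shared regions was not computed.

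Large ratios were uncommon. At least 2-fold in both clones was reached by 702 widening regions and 879 narrowing ones, at least 3-fold by 173 and 224, and at least 5-fold by 21 and 38. By added length the order changed at the top: 405 widening and 617 narrowing regions differed by 1000 bp or more in both clones, 34 and 29 by 3000 bp or more, and 11 and 4 by 4000 bp or more. In clone a 4157 shared regions were at least 1.5 times longer after treatment and in clone b 3926, so the members were 45.7% of the first set and 48.4% of the second. Only 238 shared regions (0.79%) were at least 1.5 times longer in 1 clone and at least 1.5 times shorter in the other. Over all shared regions the log2 ratios of clones a and b had a Pearson r of 0.621 (across regions of the same 4 libraries, a description only).

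**Figure D1:**
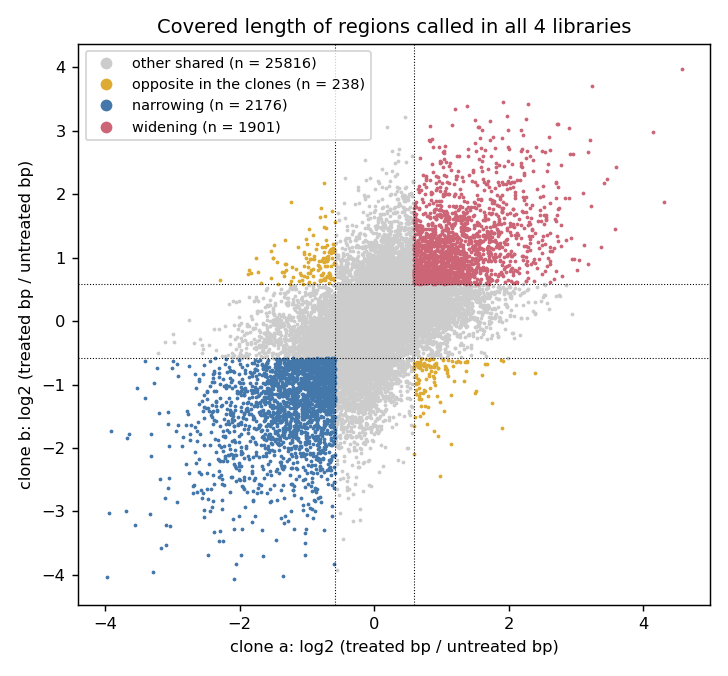
Log2 ratio of treated to untreated covered length in clone a (x axis) and clone b (y axis) for the 30131 shared regions, 1 point per region; dotted lines mark the 1.5-fold threshold. The 1901 widening regions fill the upper right corner, the 2176 narrowing regions the lower left, and 238 regions lie in the opposite corners.

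The threshold cut through a continuous range. Just inside it, a region near Mtcl1 covered 3314, 2754, 4972 and 5066 bp, with a ratio of 1.5003 in clone a and 1.84 in clone b. Just outside it, the region at Lmo4 covered 1137, 1496, 2210 and 2241 bp, with ratios of 1.94 and 1.498. The 2 regions differ in length but hardly in the ratio that separated them. Egr1, the best known immediate-early gene, sat near the same edge: the single shared region assigned to it covered 2702, 3392, 4935 and 4760 bp, longer in both treated clones, but less than 1.5 times longer in clone b.

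The make-up of the added length is given beside that of all shared regions. In clone a 98.4% of the untreated peak length in members was still covered after treatment and in clone b 98.0%. Over all shared regions it was 85.6% and 84.4%, a gap that a rule on added length favours. Of the newly covered length, 86.7% in clone a and 85.4% in clone b lay outside the span of the untreated peaks, near the 80.2% and 79.3% over all shared regions. The split says little about how members grew, because 1228 of them (64.6%) had 1 peak in both untreated libraries and so no gap between peaks to fill. Regions grew on both sides in 1636 of 1901 cases (86.1%) in clone a and 1590 (83.6%) in clone b, against 33.5% and 33.1% of all shared regions, a gap that a rule on added length favours. The longer extension fell on the same side in both clones in 1413 of 1891 members with unequal sides (74.7%), against 58.9% over all shared regions and 79.0% over the 62 narrowing regions for which it could be scored. A single peak stood in every library in 874 members (46.0%), against 56.2% of all shared and 38.1% of narrowing regions. In 83 members (4.37%) at least 2 peaks in each untreated library had become 1 in each treated library, against 2.77% of all shared regions. Among widening regions that hold a gene start, 60.2% of the extension in clone a and 62.3% in clone b ran to the gene-body side, against 58.3% and 60.8% over all shared regions that hold a start.

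The deposited peak scores are given as ranks within each list. The best peak of a widening region stood at a median within-list percentile of 44.4 in untreated clone a and 48.3 in untreated clone b, and of 72.2 and 73.3 in treated clones a and b, and all shared regions had medians of 71.9 to 72.6 in every list. The scores are the authors' own and come from lists of different length, so no change is read from these percentiles. A few members were already near the top of the untreated lists. Pxn, which encodes the focal adhesion protein paxillin, had a region of 1986, 1916, 3184 and 2979 bp whose best peak was above the 99.9th percentile in all 4 lists. Ptpa, Tcp11l2, Gng2 and Cd3eap had the next highest untreated percentiles, and their regions were 1.64 to 1.72-fold longer after treatment.

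The longest additions lay near genes of the ERK lists and also far from them. The region with the largest added length, chr18:38626678-38639343, lies inside Arhgap26 and 25.3 kb from Spry4, which encodes a Sprouty inhibitor of growth factor signalling. It covered 2745 bp (clone a) and 5792 bp (clone b) before treatment and 12666 bp and 11720 bp after it. In untreated clone a it was split into 4 peaks and in untreated clone b into 9, against 1 in treated clone a and 3 in treated clone b. The second was chr10:111569183-111581587, 60.5 kb from Phlda1, an immediate-early gene of the pleckstrin homology-like family, with 4765, 5052, 12115 and 12055 bp. The clones were close there, with an SD of 203 bp in untreated and 42.4 bp in treated cells (n = 2 each). The groups were far apart, as the choice by added length favours. Inside Nrp2, which encodes a neuropilin co-receptor for semaphorins and VEGF, a region covered 2853, 2697, 10002 and 8705 bp.

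Other long additions were at genes with roles outside the cascade. A region 26.9 kb from Npas3, a neuronal transcription factor gene, covered 581, 1345, 6998 and 7252 bp. One inside Slc10a7 covered 1607, 1054, 6429 and 6904 bp. The region of highest fold lay inside Dner, which encodes a transmembrane Notch ligand, and covered 210, 351, 4984 and 5475 bp, a 19.2-fold difference. All 3 were picked for added length or fold, so the wide gap between groups beside that between clones is a description only. Pecam1, an endothelial adhesion gene also expressed in mouse embryonic stem cells, had 3492, 2548, 7969 and 7272 bp. Camk1d, a calmodulin-dependent kinase gene, had 893, 946, 4720 and 6301 bp. A region 351 kb from the nearest protein-coding gene, Plekhb2, had 3935, 4472, 8146 and 9318 bp, with 8 gained regions (called in both treated and no untreated library) within 50 kb.

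High folds were also found at shorter regions. The region in Pax8, a paired-box factor gene, covered 219, 480, 3883 and 3797 bp, an 11.8-fold difference. The region near Cxxc5 covered 216, 1240, 4283 and 4553 bp, so its untreated clones differed far more than its treated ones. Regions at Btbd17, Gad1 (glutamate decarboxylase) and Sema4b (a semaphorin) differed by 7.56, 7.53 and 7.23-fold. A region 83.7 kb from Map4k3, a kinase gene of the MAP4K family, differed by 7.83-fold.

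Among inhibitors of the pathway, Spry4 had 3 assigned shared regions, all members, and all 6 shared regions within 100 kb of it were members. Their summed length was 5819 bp in untreated clone a, 10778 bp in untreated clone b, 25453 bp in treated clone a and 24054 bp in treated clone b. The clones differed more before than after treatment, and the treated values were far above both, as the rule favours in a sum over members. At the gene itself a region covered 731, 862, 2394 and 1934 bp, and the 2 regions 15.7 and 11.2 kb beyond its lower-coordinate end covered 219, 352, 2014 and 2535 bp and 498, 1924, 3893 and 3795 bp. Spry2, a second Sprouty gene, had 1 member among 4 assigned shared regions.

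Phosphatases that inactivate MAP kinases differed among themselves. All 5 shared regions assigned to Dusp4 were members, with 1867, 2760, 5364 and 4964 bp at the gene and 4 shorter regions packed into 8.44 kb 73.6 to 79.0 kb away. Dusp5 had 3 members of 5, the longest addition lying 12 kb away with 939, 1604, 4672 and 4609 bp. Treated values were above untreated ones in both clones at each of these, as the rule requires of members. Dusp6, the classical cytoplasmic ERK phosphatase, had no member among 8 shared regions within 100 kb, whose summed length was 10775, 11058, 11953 and 10779 bp. Dusp1 and Dusp14 each had 1 narrowing region and no member.

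ETS factors and other genes of the feedback list followed no single pattern. Etv4 had 375, 1001, 2169 and 2327 bp in its 1 assigned region, which was the only member among 8 shared regions within 100 kb. Etv1 had 1 member among 4 assigned regions, and Etv5 had none and 1 narrowing region among 7. Ier5l had a member of 765, 906, 1827 and 1787 bp, and Errfi1, an inhibitor of EGF receptor kinases, had 1 of 3. Over the list of ERK feedback genes and ETS factors, 11 of 25 genes with a shared region had a member and 3 had a narrowing region; 19 of 95 shared regions (20%) were widening and 3 (3.16%) narrowing.

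The immediate-early list counted much the same. Of its 28 genes with a shared region, 11 had a member and 2, Fosb and Jun, had a narrowing region; of 100 shared regions 19 were widening and 2 narrowing. The same shares over all shared regions within 100 kb of a protein-coding gene were 6.26% widening and 6.67% narrowing, and over all genes with a shared region 12.1% had a member. The median log2 fold was 0.18 over the shared regions of this list, 0.17 over the feedback list and 0.04 over all genes.

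Among these early genes, Phlda1 had 3 members, all 3 of the shared regions nearest to it and 3 of 10 within 100 kb. Besides the long one these covered 270, 535, 831 and 952 bp beside the gene and 473, 1615, 2906 and 3620 bp at a distance of 84.0 kb. Myc, the growth regulator, had 2 members of 8: 323, 307, 998 and 1012 bp at 3.53 kb and 3657, 4839, 6871 and 7280 bp at 17.4 kb. Both Myc regions were longer in each treated clone than in either untreated one, which the rule favours. Plaur, the urokinase receptor gene, had 2 members of 3. The first, of 3061, 2567, 4985 and 4626 bp, ended 179 bp before its listed start. The second, of 1357, 865, 2835 and 2870 bp, held that start. The Kruppel-like factor genes Klf10 and Klf6 had 3 members of 7 and 2 of 7, with folds of 1.67 to 2.72 and 1.95 to 2.02. Ccn2, a matricellular protein gene, had 2 of 6. Fos had no member among 9 shared regions within 100 kb, with a summed length of 13896, 16590, 10507 and 15299 bp.

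**Figure D2:**
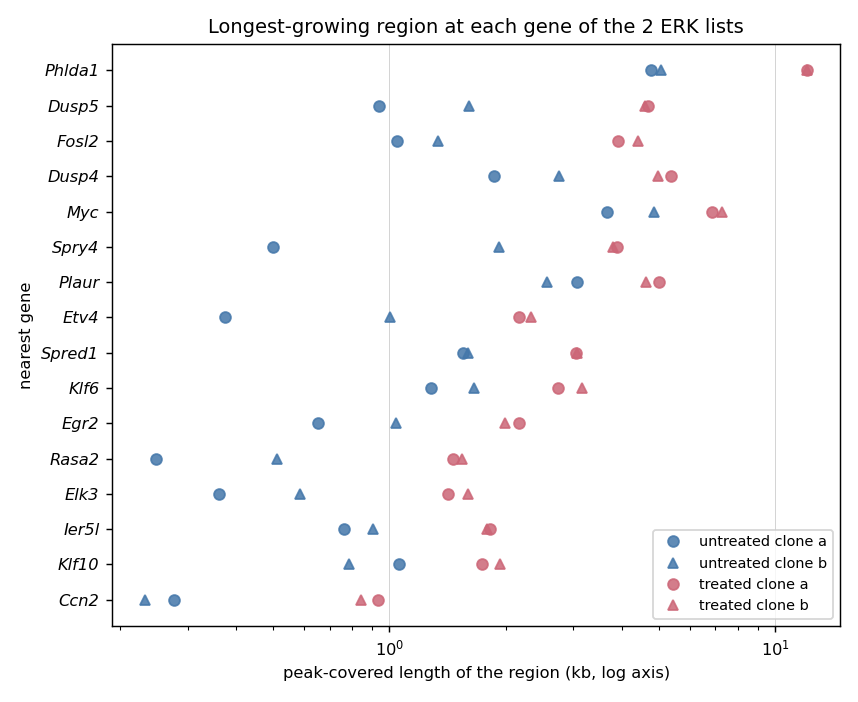
Peak-covered length (kb, log axis) of the member with the largest added length at each named gene of the ERK feedback and immediate-early lists. Circles are clone a and triangles clone b, blue untreated and red treated. At every gene drawn both red symbols lie to the right of both blue ones, which the rule for members favours.

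Actin cytoskeleton genes and SRF targets had 6 widening and 6 narrowing regions among 80. Anxa2, an annexin gene of that list, held the longest addition there, with 2565, 3345, 6791 and 7357 bp. Actb had no member among 10 shared regions within 100 kb. Naive pluripotency genes, active in unprimed stem cells, had 9 widening and 16 narrowing regions among 172, and 5 of 27 genes had a member against 9 with a narrowing region. Within that list the members belonged to few genes: 4 to Manba, 2 to Klf5, and 1 each to Tbx3, Jam2 and Esrrb. Manba encodes the enzyme beta-mannosidase and is not a pluripotency regulator, although the list included it. Of its 8 shared regions 4 were members, so much of the list's widening count came from Manba. The longest at Manba covered 1384, 1327, 3652 and 3631 bp, and the longer addition at Klf5 1285, 638, 3713 and 2821 bp. Nanog had no member and 1 narrowing region among 14 shared regions within 100 kb. Pou5f1 had 2 members among 12 within 100 kb, both nearer to other genes (H2-Q10 and Tcf19).

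Formative and primed epiblast genes, which come on as cells leave the naive state, had 9 widening and 9 narrowing regions among 74. Dnmt3a, a DNA methyltransferase gene, had a region of 404, 1251, 1724 and 3184 bp. In the Dnmt3a region the clones lay far apart within each treatment, but the groups did not overlap, which the rule favours. Trophoblast genes had 6 widening and 2 narrowing regions among 36, led by Tead4 with 1156, 1586, 2361 and 3309 bp. Of the 6, 2 belonged to Eomes, also on the mesoderm list, and 1 to Krt18, also on the actin list. Mesoderm, primitive endoderm, neural and WNT target genes had 11 to 34 shared regions each, too few for a share to say much: 2 widening and 0 narrowing, 2 and 4, 4 and 5, and 2 and 0. Sparc, of the primitive endoderm list, had 365, 570, 2375 and 2582 bp, and Lef1, of the WNT list, 311, 280, 878 and 1014 bp. Core pluripotency genes had 2 widening and 1 narrowing region among 32, chromatin genes 2 and 3 among 66 and housekeeping genes 2 and 1 among 33. Lists of marker genes had 1 and 5 among 65 for stem cells, 0 and 1 among 7 for fibroblasts and 2 and 0 among 14 for differentiated tissues.

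**Figure D3:**
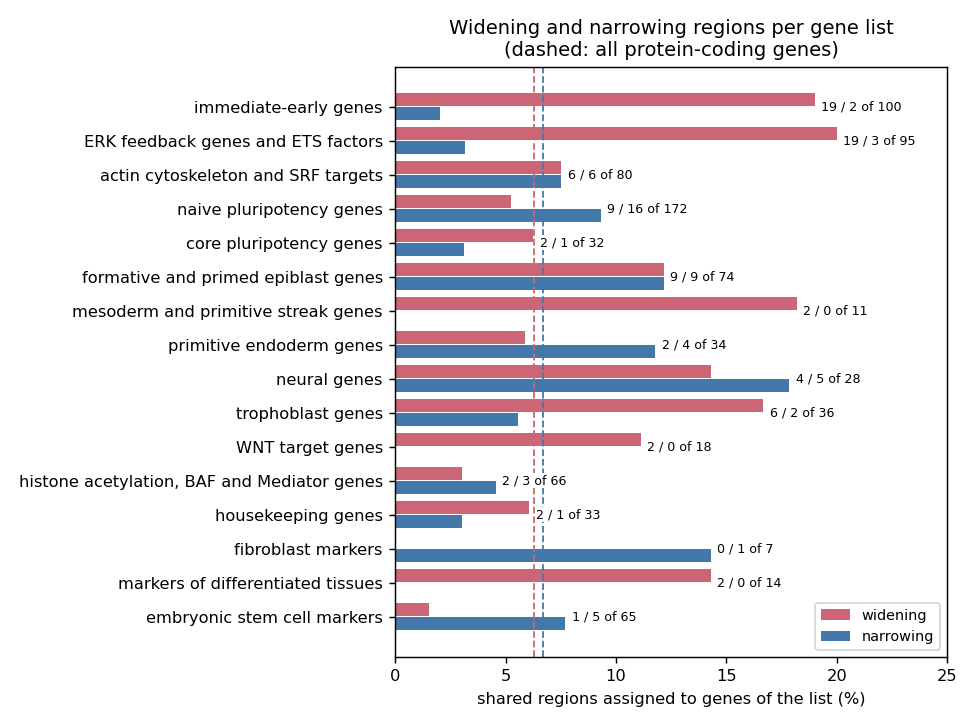
Share of the shared regions assigned to each of 16 gene lists that were widening (red) or narrowing (blue), in percent, with counts beside the bars (widening / narrowing of shared) and dashed lines for all protein-coding genes (6.26% and 6.67%). The immediate-early and feedback lists reach 19% and 20% widening with 2.00% and 3.16% narrowing; lists under 40 regions give imprecise shares.

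Most genes had a single member, and some had several. Of 1467 genes with a member, 1236 had 1 and 184 had 2. Arntl, the clock gene also called Bmal1, and Map4k3 had 6 each, and Pla2g7, Dusp4 and Etl4 had 5 each. The longest addition assigned to Arntl lay 31.0 kb from the gene and covered 1633, 1383, 4798 and 4914 bp, and its other members were 1.95 to 3.95-fold longer. Of the members assigned to Map4k3, 5 lay together within 25.9 kb, at 72.7 to 96.5 kb from the gene. The longest addition was among these, 77.5 kb away, and covered 1777, 2312, 5796 and 5675 bp. At Pla2g7, which encodes a secreted phospholipase that degrades platelet-activating factor, members were at least 3.18-fold longer on the geometric mean of the clones, though the lowest of these combined ratios of 1.81 in clone a and 5.56 in clone b. Its longest addition covered 887, 1445, 4238 and 5194 bp.

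Members also lay near each other and near gained regions. Another member lay within 50 kb of 34.0% of them, against 18.1% for all shared regions, and a gained region lay within 50 kb of 53.8%, against 31.8%. A lost region, called in both untreated and no treated library, was that near to 17.6%, against 29.9%, and a narrowing region to 10.7%, against 18.8%. Narrowing regions mirrored this, with another narrowing region within 50 kb of 36.7% and a lost region within 50 kb of 51.7%, so lying near regions that changed alike was not particular to members. Chained at 50 kb, 1255 members stood alone and 226 chains held 2. The 7 members around Ankrd66 and Pla2g7 were all 7 shared regions of a 61.4 kb stretch of chromosome 17, which also held 7 gained and 0 lost regions. Their summed length was 6395, 6326, 22510 and 24050 bp, so the clones were alike in each treatment. The 6 around Spry4 and Arhgap26 likewise were all 6 of their stretch, with 6 gained and 0 lost. Another 7, on chromosome 16, were among 11 shared regions of a 71.8 kb stretch with 4 gained and 0 lost regions, more than 100 kb from the nearest protein-coding gene, 1810013L24Rik, and summed to 10400, 11802, 25054 and 24517 bp. The remaining chain of 7, at the Pcdhg protocadherin genes on chromosome 18, were among 14 shared regions with 1 gained and 0 lost, and summed to 2729, 2852, 7025 and 5917 bp.

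**Figure D4:**
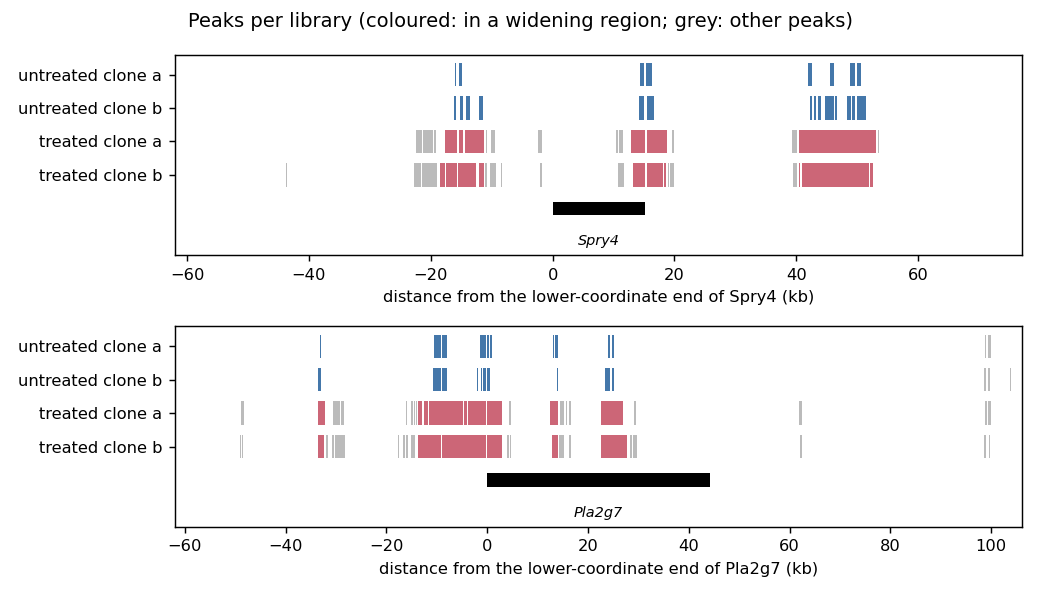
Peaks in each library around Spry4 (top) and Pla2g7 (bottom), by distance in kb from the lower-coordinate end of the gene, which is drawn as a black bar. Blue (untreated) and red (treated) peaks lie in widening regions and grey peaks in other regions; short blue peaks sit within longer red ones, and most grey peaks occur in the treated libraries.

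Widening and narrowing regions lay at different places relative to genes. An end of a protein-coding gene lay within 1 kb of 561 widening regions (29.5%, 95% Clopper-Pearson interval 27.5 to 31.6%), of 9.51% of narrowing regions (8.31 to 10.8%) and of 37.9% of all shared regions. These intervals cover counting error only, and neighbouring regions are not independent. At gene ends 561 regions widened and 207 narrowed, so 73.0% of those that changed widened; farther away 1340 widened and 1969 narrowed, so 40.5% did. The majority at gene ends was found in all 5 classes of mean covered length, from 77.0% below 500 bp to 65.0% between 2000 and 4000 bp. Gene starts gave the same picture, with 290 members (15.3%) holding a start, against 3.03% of narrowing and 20.5% of all shared regions. Starts were available for 17491 of the 21896 protein-coding genes only, so these shares are undercounts. Members overlapped a protein-coding gene in 60.2% of cases and lay over 100 kb from any in 7.42%, close to the 61.2% and 6.70% of all shared regions; narrowing regions did so in 43.9% and 13.9%. Chromosomes 1 to 19 held 4.48% (chromosome 14) to 8.57% (chromosome 19) of their shared regions as members.

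**Figure D5:**
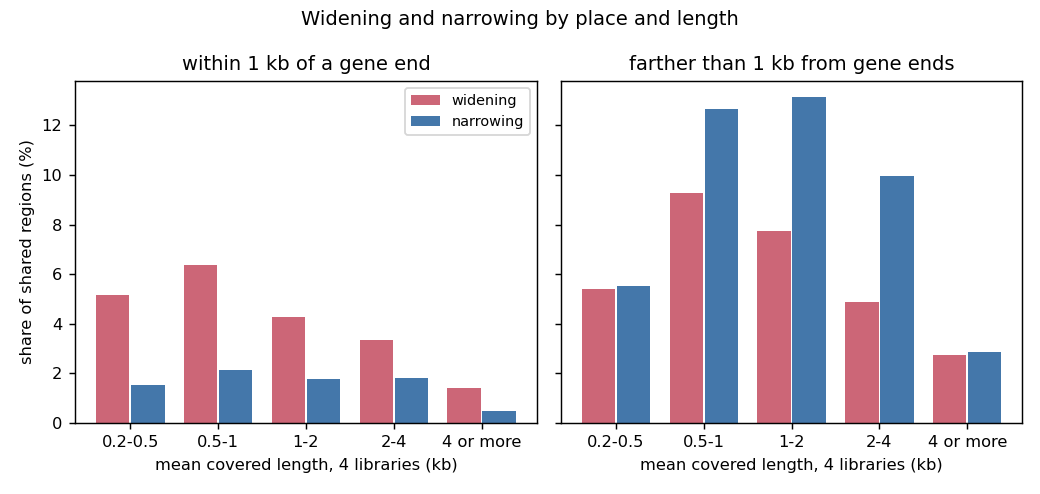
Share of shared regions that widened (red) or narrowed (blue), in percent, by mean covered length over the 4 libraries (kb), within 1 kb of a gene end (left) and farther away (right). At gene ends the red bar is the taller in all 5 length classes; away from them the blue bar is, by small margins in the first and last class.

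Hairpins of 4 annotated microRNAs overlapped widening regions and 3 overlapped narrowing ones, out of 108 in shared regions, so members held no greater share of them than of shared regions as a whole (6.31%). Mir22, the hairpin of the conserved miR-22, lay in a region of 406, 326, 732 and 730 bp. Its mature 3p strand is shown as that of the best known of the 4, chosen after the values were seen; capitals mark the seed, bases 2 to 8.
miR-22-3p: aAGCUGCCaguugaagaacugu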

How the data were processed

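H3K27ac was measured by chromatin immunoprecipitation (antibody ab4729) and sequencing in 2 untreated and 2 treated libraries; the 4 inputs are not used here. Per the submitters' processing notes, Bowtie2, bedtools and MACS2 were used on mm10; versions, thresholds and the role of inputs were not given in the sources used here. Peaks come 1 list per library. The peak score is the authors' deposited value, with no stated scale, and was used only to rank or filter within a list. The files hold no read counts, so depth is unknown, and a longer peak can come from a deeper or more enriched library as well as from more mark.

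Peaks were merged and covered lengths summed with Python 3.11.15, numpy 2.4.6 and pandas 2.3.3, and exact binomial intervals came from scipy 1.17.1. The steps were tested on simulated peak lists. Clone letters in the labels paired the libraries, and ratios were taken within clones. Each region took the nearest gene among 21896 protein-coding ones (RefSeq, GRCm38.p6) within 100 kb. Either gene end was used for position because the promoter table covers 17491 of these genes. The members and gene lists were chosen with earlier results of these data known, so no test was run. Named regions were the 10 with the largest addition, the 10 with the highest fold among those of 2000 bp or more after treatment, those at up to 4 genes per list (8 for the ERK lists) and at the 8 genes with most members, the 3 on each side of the threshold, the 5 ranked highest before treatment, and 9 genes always reported (Egr1, Fos, Dusp6, Spry4, Etv4, Phlda1, Nanog, Pou5f1, Actb). Counts at other genes of the lists, and the Mir22 region, were chosen after their values were seen. A gene that the rule would name is left out. Promoters printed lie wholly inside a member. Alternatives varied the ratio, merging distance, score filter, list length, scaling, span, minimum addition, clone pairing, gene distance and left-out library.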

Additional observations from a re-analysis of the deposited data

Results flagged for a closer look

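The clones went opposite ways at 238 shared regions, which were at least 1.5 times longer after treatment in 1 clone and at least 1.5 times shorter in the other. Of these, 115 were longer in clone a and 123 in clone b. They were short, with a median covered length of 490 bp over the 4 libraries, close to the untreated length of the widening regions. With 1 library per clone and treatment, the difference between clones was not tested.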

How the results depend on the processing

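The number of widening regions (1901) was 3936 with the lower alternative ratio threshold, 702 with a ratio of 2, 1027 with at least 500 added bp in each clone and 805 with the upper 50% of each list by score. Leaving out 1 library gave 2219 to 3580, the higher values without untreated clone a (3580) or b (3552). In these runs the library left in its group entered both ratios, and fewer lists had to share a region. The cause of the higher values was not tested. The widening share of all changed regions (46.6%) was 50.02% with the lower threshold, 44.4% with 2, 42.7% with 500 added bp, 51.2% with the upper 50% by score, 49.0% after scaling to each list's covered length and 48.3% with no replicate block, that is, without the pairing of clones. Without 1 library it ran from 36.0 to 64.0%: 64.0 and 58.2% without an untreated library, 36.0 and 39.6% without a treated one. Which kind was more frequent thus turned on the group of the library left out. Because the remaining library of that group entered both ratios, these runs cannot show whether the majority rests on a single library. The share of members at gene ends (29.5%) was 37.1% with the lower threshold, 26.4% with 2, 26.9% with 500 added bp, 41.0% with the upper 50% by score, 34.8% with merging within 1000 bp, 34.2% with a 2 kb distance and 30.5 to 33.8% without 1 library. Genes of the ERK lists with a member (22) were 14 with a ratio of 2, 11 with the upper 50% by score, 21 to 31 without 1 library, and 34 when any listed gene within 100 kb counted, an alternative chosen after seeing the data. The ERK lists held more widening than narrowing regions in 13 of 13 alternatives, as did gene ends; away from gene ends narrowing regions were more numerous in 11 of 13, but not without untreated clone a (2488 against 1799) or untreated clone b (2352 against 2285). Depth is unknown, so covered length cannot be corrected for it.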
